A study of Homo sapiens with 6 samples.

Results

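The genes described here are 31 genes of the NRF2 pathway, out of 38557 gene symbols in each deposited table: NRF2 itself and its regulators, and targets that serve antioxidant defence, glutathione and NADPH supply, iron storage and detoxification. They were matched by symbol, and all 31 were found. The list was chosen because HMOX1 rose in the same contrast that is described below, so the values of HMOX1 chose the members and no test of that contrast is offered for them. Calls and fold changes of the members are therefore given as a description.

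NRF2, encoded by NFE2L2, is a transcription factor that pairs with small MAF proteins on antioxidant response elements in the promoters and enhancers of its targets. In resting cells its partner KEAP1 delivers it to a ubiquitin ligase for degradation, and electrophiles or oxidants that modify KEAP1 let NRF2 accumulate. Its targets make glutathione, reduce thioredoxin, supply NADPH, degrade heme and store iron, and conjugate or export foreign compounds. Several of them, HMOX1 among them, are also controlled by other factors such as the repressor BACH1 and AP-1.

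Poly(A) RNA was sequenced from T-24, an established line of epithelial cells derived from a human bladder tumour. The treated group (3 libraries) received 1 µM CCT068127 for 48 h and carries the genotype label "CCT068127 treated". The control group (3 libraries) received the vehicle DMSO for 48 h and is labelled WT, and no engineered allele is named for either group. The compound CCT068127 inhibits CDK2, a kinase of cell cycle progression, and CDK9, which RNA polymerase II needs for productive elongation. The labels call the samples independent biological replicates of 1 cell line at 1 dose and 1 time, so the p-values behind the calls measure the spread between these cultures.

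DMSO replicates 1 and 2 held 371044040 and 411097626 counts and the other 4 libraries between 1966742 and 5955296, so DMSO replicate 3 was the single control of similar depth to the treated libraries. The part of depth in the results was not tested, and where a call was lost in a fit against DMSO replicate 3 alone, a fit with 1 control, the value from it is given. A count of 0 allowed up to 0.448 CPM (the count of a gene relative to the scaled library total) in DMSO replicate 3 and up to 1.71 CPM in CCT068127 replicate 2, for counting error only. The epithelial keratins KRT7, KRT8, KRT18 and KRT19 were abundant, and the 6 epithelial markers summed to 3680 to 4870 TPM (a level per transcript length, relative to the sum over all genes) under DMSO and 5280 to 6730 TPM under CCT068127. The epithelial adhesion gene CDH1 lay at or below 0.14 TPM in all libraries. The 5 leukocyte markers summed to 5.48 to 9.53 TPM under DMSO and 45 to 47.3 TPM under CCT068127, nearly all of it CD68, while PTPRC and CD3E were at or below 0.52 TPM. The 4 fibroblast markers, nearly all PDGFRB, summed to 10.6 to 13.8 TPM under DMSO and 1.38 to 1.95 TPM under CCT068127, with DCN and LUM listed at 0, and the 3 endothelial markers summed to 2.26 to 5.67 TPM across all libraries. Of the 3 erythroid markers, HBA1 was listed at 16.5 and 16 TPM in CCT068127 replicates 1 and 2 and at 0 in the other 4 libraries, while HBB and ALAS2 were at or below 0.2 TPM. The part of these markers in the results was not tested.

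Fold changes below compare CCT068127 with DMSO and come from edgeR's quasi-likelihood fit over 13597 genes on TMM-scaled counts, a scaling that sets the bulk of genes near no change. "Rose", "fell" and "called" refer to a Benjamini-Hochberg adjusted p below 0.05 in that fit, and errors after a log2 fold change are standard errors (SE). In that fit 64.7% of all tested genes were called, 31.9% higher and 32.8% lower. The zero line depended on the scaling: the median of all genes lay at -0.05 under TMM, at -0.36 when counts were scaled by library totals, and at -0.46 in limma-trend on log2(TPM + 1). Poly(A) RNA from cells in bulk cannot separate fewer cells of a kind from less RNA per cell, and without a spike-in every change is relative to the rest of the library.

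Of the 31 members, 29 passed the filter on low counts. Of those 29, 19 were called higher, 9 lower and 1, ME1, neither, and their median log2 fold change was 0.59 against -0.05 over all genes. Because HMOX1's rise chose the list in this contrast, nothing is read from these shares against the background. Scaled by library totals, 14 were called higher and 10 lower where 22.1% and 48.3% of all genes (70.4% together) were called in those directions, with a members' median of 0.28. On log2(TPM + 1), 11 were called higher and 9 lower where 17.2% and 51.9% of all 14394 genes (69.1% together) were called, with a median of 0.10. Relative to the median of all genes the members' median was 0.64, 0.64 and 0.57 in the 3 fits. The median of the members against the DMSO mean was 0.07, -0.03 and -0.02 for the DMSO replicates and 0.65, 0.50 and 0.60 for the treated ones. Over all tested genes it was 0, 0.01 and -0.02 for the DMSO replicates and -0.06, -0.03 and -0.03 for the treated ones. For the same reason as above, nothing is read from this difference.

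Under all 3 scalings 11 members were called higher (MAFG, HMOX1, FTL, FTH1, GCLM, TXN, PRDX1, PGD, TALDO1, AKR1B10 and OSGIN1) and 8 lower (KEAP1, TKT, AKR1C2, AKR1C3, CBR1, UGDH, EPHX1 and ABCC3). The other 12 depended on the scaling or were not tested, and 5 of them changed sign: NFE2L2, BLVRB, SLC7A11, GCLC and TXNRD1. HMOX1, which chose the list, is among the 11, as is AKR1B10, which passed the filter on low counts only through the treated libraries, and AKR1C2, which passed it only through the controls, is among the 8. Without these 3 genes the numbers were 9 and 7. In the 3 single fits 17.2% to 31.9% of all genes were called higher and 32.8% to 51.9% lower. The share of all genes called alike in all 3 was not computed, so nothing is read from these numbers. Against DMSO replicate 3 alone, 16 members were called higher and 5 lower, where 23.5% and 18.9% of all 14530 genes (42.4% together) were called, and 14 and 4 without the same 3 genes.

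**Figure D1:**
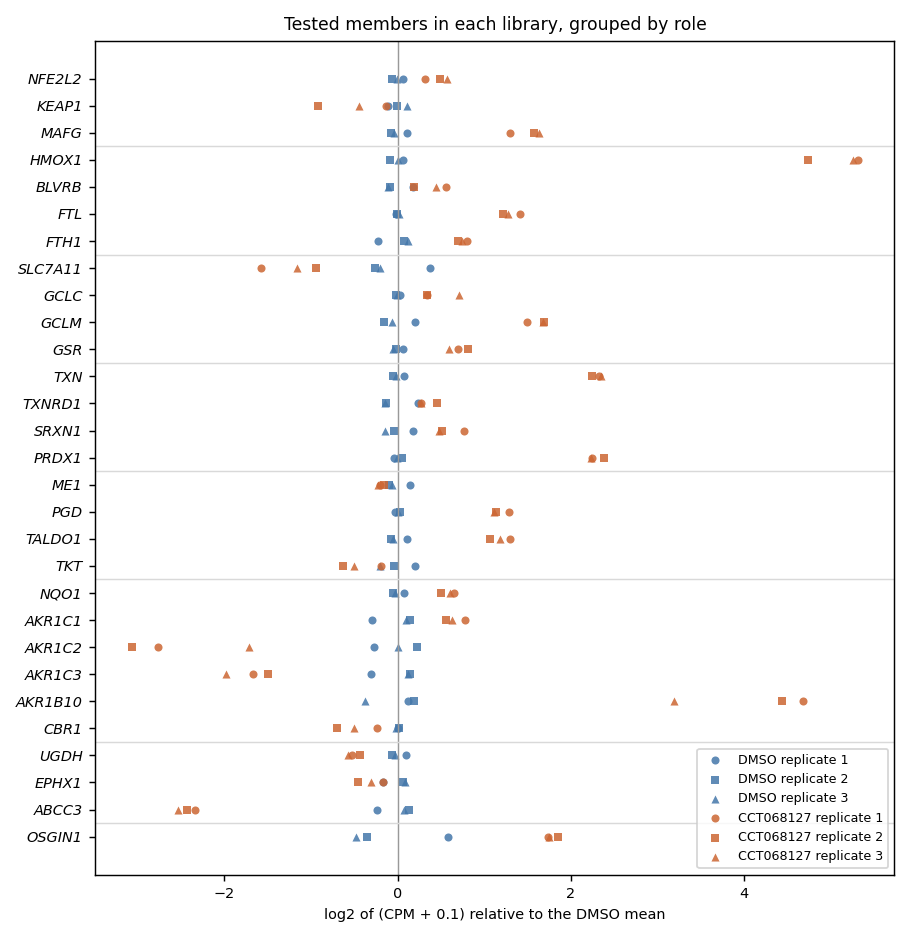
Each of the 29 tested members (rows, grouped by role) in each of the 6 libraries, as log2 of CPM + 0.1 relative to the DMSO mean. Blue marks are DMSO and orange marks CCT068127 replicates, with the same shape for the same number. HMOX1 and AKR1B10 lie farthest to the right, ABCC3 and AKR1C2 farthest to the left, and both directions occur among the reductases.

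**Figure D2:**
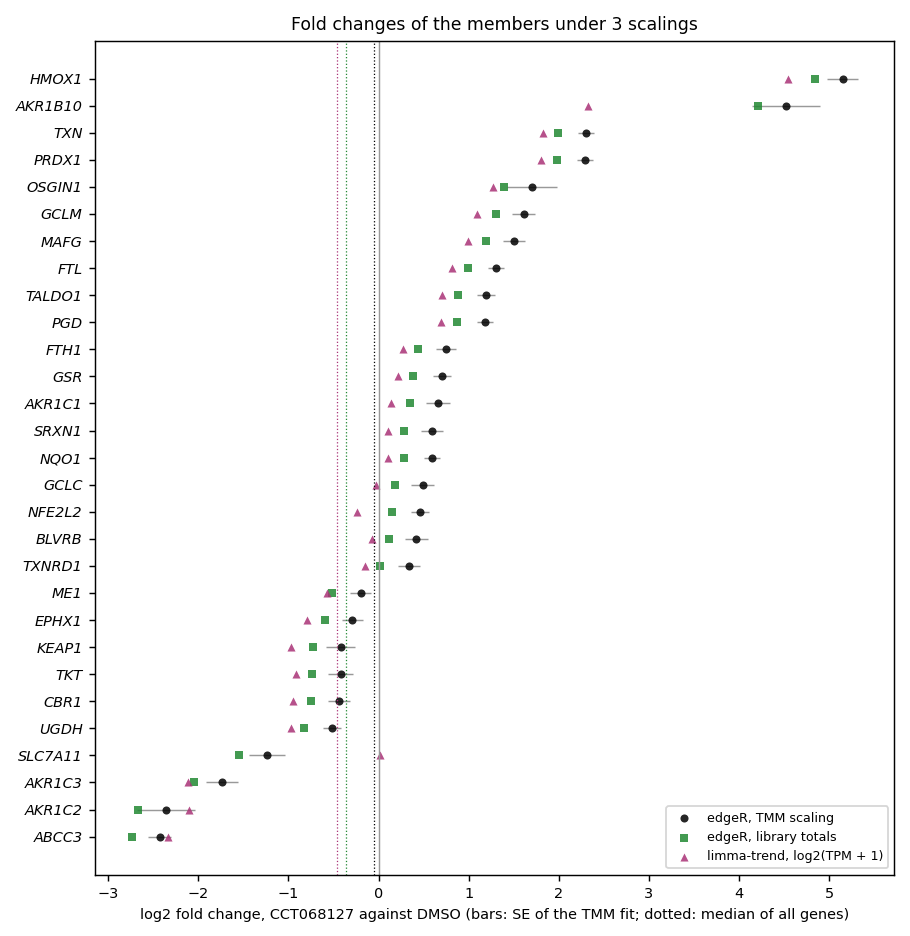
Log2 fold change of the 29 tested members under 3 scalings: TMM (black, bar ± SE), library totals (green) and log2(TPM + 1) (pink). Dotted lines mark the median of all genes in the same colours, at -0.05, -0.36 and -0.46. SLC7A11 lies at -1.24 in counts and 0.02 on log2(TPM + 1), and AKR1B10, a gene of low TPM, at 4.52 and 2.32.

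The regulators did not move together. NFE2L2 (chr2:177230303-177264727, GRCh38) had 97.0, 88.8 and 91.8 CPM under DMSO and 115, 130 and 137 CPM under CCT068127, a rise of 0.46 ± 0.10 that became 0.15 by library totals and changed sign to -0.24 on log2(TPM + 1), neither of them called. Against DMSO replicate 3 alone it was 0.44 and not called. All 3 treated libraries were above all 3 controls in CPM, and all 3 were below them in TPM (59.6 to 74.2 against 76.1 to 84.8). KEAP1, the inhibitor, had 64.6, 69.4 and 74.7 CPM under DMSO and 63.2, 36.6 and 50.9 under CCT068127. It fell by 0.42 on the log2 scale (SE 0.16), and CCT068127 replicate 1 lay just under the lowest control. The call was lost when DMSO replicate 2 (-0.45) or 3 (-0.41) or CCT068127 replicate 2 (-0.30) or 3 (-0.42) was left out, against DMSO replicate 3 alone (-0.57), and with DESeq2 (-0.40) or limma-voom (-0.38). MAFG, a small MAF partner of NRF2, had 78.0 to 88.2 CPM under DMSO and 201, 244 and 254 CPM under CCT068127. It rose 2.83-fold (log2 1.50 ± 0.12) with a wide gap between the groups.

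Among the 24 members with a RefSeq promoter, short matches to the core of the antioxidant response element occurred in members of either direction. No promoter was available for ABCC3, AKR1B10, FTH1, GSR, HMOX1, PRDX1 and SLC7A11, so HMOX1, which chose the list, was not searched. The core was searched as TGACNNNGC on both strands in the 250 bases before each annotated start (RefSeq, GRCh38.p14). It was present before 3830 of 35116 starts in the genome (10.9%) and before 9 of the 30 starts listed for 24 members, which belonged to 8 members: PGD, GCLM, EPHX1, ME1, TXNRD1, GPX2, KEAP1 and CBR1. The matches below are shown because the same core stands before genes that rose (GCLM, PGD, TXNRD1), fell (CBR1, EPHX1, KEAP1) and were not called (ME1). The calls of TXNRD1, EPHX1 and KEAP1 were lost in some fits with 1 library left out. Capitals mark the core, and each line reads 5′ to 3′ on the strand that carries it, with 10 bases on either side.
GCLM, rose (chr1:93909446-93909474, plus strand): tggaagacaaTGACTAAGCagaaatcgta
PGD, rose (chr1:10398853-10398881, minus strand): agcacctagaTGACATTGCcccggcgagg
TXNRD1, rose in counts (chr12:104215670-104215698, plus strand): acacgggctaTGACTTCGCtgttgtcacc
CBR1, fell (chr21:36069855-36069883, minus strand): ccagctagccTGACTTTGCagaacccgca
EPHX1, fell (chr1:225825266-225825294, plus strand): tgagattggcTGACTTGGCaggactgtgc
KEAP1, fell (chr19:10502784-10502812, plus strand): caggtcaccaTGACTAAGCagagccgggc
ME1, not called (chr6:83431170-83431198, minus strand): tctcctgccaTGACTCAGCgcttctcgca
The GCLM core ended 26 bases before its annotated start and the KEAP1 core 23 bases before its own. KEAP1 and TXNRD1 each had a further match that is not printed. In GENCODE 29 the printed ME1, TXNRD1 and CBR1 stretches lay upstream of the gene and the PGD and EPHX1 stretches in an intron. The GCLM and KEAP1 stretches lay in an untranslated exon of a transcript of the gene. The CBR1 stretch also lay inside SETD4 and AP000688.1 on the other strand. The AP-1 site TGANTCA, searched likewise, stood before 6.57% of starts and before 2 members, OSGIN1 and ME1, where it overlapped the core printed above. A match is a description of letters and not a bound site.

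Beside HMOX1, the 3 other heme and ferritin members were all called higher under TMM, and 2 of them, the ferritin chains, also by library totals and on log2(TPM + 1). Of all genes, 31.9%, 22.1% and 17.2% were called higher in these fits. HMOX1 (chr22:35381096-35394207), the enzyme that opens the heme ring and releases iron, had 11.4, 10.3 and 10.9 CPM under DMSO and 438, 294 and 420 CPM under CCT068127. These are the values that chose the list, given here without a test: 35.4-fold higher, or 5.15 ± 0.17 on the log2 scale. Its TPM went from 15.4 ± 0.947 (SD, n = 3) to 387 ± 75.3 (SD, n = 3), which moved it from 25th to 7th among the members by level per length. CCT068127 replicate 2, the shallowest library, was the lowest treated value and was still far above every control. BLVRB, a biliverdin and flavin reductase, had 31.8, 26.3 and 26.0 CPM under DMSO and 41.4, 32.0 and 38.1 CPM under CCT068127. It was called higher by 0.42 ± 0.13 in counts but lay at -0.07, uncalled, on log2(TPM + 1), and the count call was lost when DMSO replicate 2 (0.34) or 3 (0.35) or CCT068127 replicate 1 (0.31) or 3 (0.41) was left out, and against DMSO replicate 3 alone (0.51).

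The ferritin chains, which store iron as a shell of 2 subunit types, were the most abundant members per length in both groups. FTL, the light chain, had 841, 851 and 864 CPM under DMSO and 2270, 1980 and 2060 CPM under CCT068127, and rose 2.47-fold (log2 1.30 ± 0.09). FTH1, the heavy chain, had 3520, 4340 and 4490 CPM under DMSO and 7210, 6710 and 6910 CPM under CCT068127, a rise of 1.69-fold. In TPM the heavy chain stood at 7690 ± 959 and 9240 ± 178 and the light chain at 2270 ± 46.4 and 3990 ± 205 (SD, n = 3 each). The groups did not overlap for either chain on either scale. Ferritin transcripts share sequence with processed copies: 40.4% of the 50-base words of FTH1 and 18.3% of those of FTL occur in transcripts of other genes in GENCODE 29, so the split of reads among these is uncertain.

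Of the 4 tested glutathione genes, 3 were called higher and 1 lower under TMM, and 1 was called higher and 0 lower on log2(TPM + 1). The shares of all genes were 31.9% higher and 32.8% lower under TMM, and 17.2% and 51.9% on log2(TPM + 1). GCLM, the modifier subunit of the enzyme that makes the first bond of glutathione, had 34.2, 26.6 and 28.4 CPM under DMSO and 83.8, 96.0 and 95.2 CPM under CCT068127. It rose 3.05-fold (log2 1.61 ± 0.13), and every treated library was above every control in both units. GCLC, the catalytic subunit of the same enzyme, had 26.7 to 27.6 CPM under DMSO and 34.2, 34.3 and 44.3 CPM under CCT068127, a rise of 0.49 ± 0.13 that was 0.18 by library totals and turned to -0.03 on log2(TPM + 1), both uncalled. Against DMSO replicate 3 alone it was 0.46 and not called. The subunits stood at 12.7 ± 1.80 TPM for GCLM and 15.7 ± 0.447 TPM for GCLC under DMSO, and at 28.0 ± 2.74 and 15.5 ± 2.12 TPM under CCT068127 (SD, n = 3 each). The order of the subunits by level was therefore opposite in the treated libraries. GSR, which regenerates reduced glutathione with NADPH, had 38.1 to 41.4 CPM under DMSO and 64.2, 69.7 and 59.9 CPM under CCT068127, and rose by 0.70 ± 0.10, with 0.21 and no call on log2(TPM + 1). GPX2, a glutathione peroxidase of epithelia, was not tested: its deposited counts were 34, 25 and 0 under DMSO and 1, 0 and 2 under CCT068127.

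SLC7A11, the cystine importer that supplies glutathione synthesis, differed between the deposited tables. In counts it had 189, 122 and 127 CPM under DMSO and 48.9, 76.0 and 65.1 CPM under CCT068127, a fall of 1.24 on the log2 scale (SE 0.20). DMSO replicate 1 stood above the other controls, and without it the value was -1.03. In TPM it had 41.2, 25.9 and 27.6 under DMSO and 26.6, 38.3 and 30.4 under CCT068127, so that the groups overlapped and the log2(TPM + 1) difference was 0.02. A direction for SLC7A11 was thus present in counts by TMM (-1.24) and library totals (-1.55) and absent per length.

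The gap between the tables can be expressed as counts per TPM, which follows the length that the quantification assigned to a gene's transcripts in that library. Set relative to the DMSO mean and to the median gene of the library, this relative length of SLC7A11 was 0.998, 1.00 and 1.00 under DMSO and 0.277, 0.310 and 0.335 under CCT068127. The mean of 0.308 was the lowest among 10496 genes with a value, for which the 5th to 95th percentiles were 0.868 and 1.11. GENCODE 29 lists a 9645-base protein-coding transcript and a 797-base transcript marked for nonsense-mediated decay for SLC7A11 (chr4:138164097-138242349). The deposited tables give 1 value per gene symbol, so the isoforms themselves were not analysed here. ABCC3 had the next lowest relative length among the members, 0.719, 0.697 and 0.697 under CCT068127, at the 1.16th percentile of all genes. NFE2L2 lay at the other end with 1.17, 1.15 and 1.16, at the 96.7th percentile. The other 24 of the 27 members with a value had treated means within 0.946 and 1.02.

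**Figure D3:**
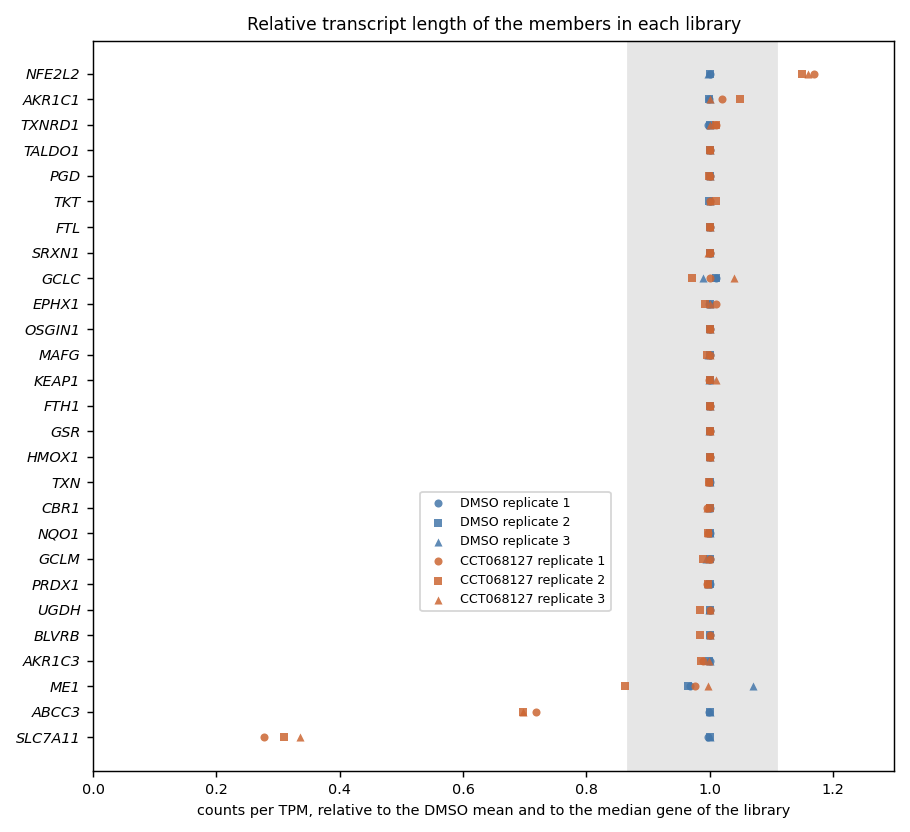
Counts per TPM of 27 members in each of the 6 libraries, relative to the DMSO mean and to the median gene of the library; the grey band spans the 5th to 95th percentile of all genes' treated means (0.868 to 1.11). SLC7A11 (0.277 to 0.335) and ABCC3 (0.697 to 0.719) lie left of the band in all 3 CCT068127 libraries and NFE2L2 (1.15 to 1.17) right of it, while all DMSO marks of these genes sit near 1.

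The thioredoxin genes were called higher in 4 of 4 under TMM and in 2 of 4 by library totals and on log2(TPM + 1). In these 3 fits 31.9%, 22.1% and 17.2% of all genes were called higher. TXN (chr9:110243810-110256507), the small protein that reduces disulfides, had 119, 109 and 112 CPM under DMSO and 567, 536 and 575 CPM under CCT068127. It rose 4.94-fold (log2 2.30 ± 0.09), and in TPM from 366 ± 20.3 to 1290 ± 45.6 (SD, n = 3). PRDX1 (chr1:45511051-45522890), the peroxiredoxin that uses it to remove hydrogen peroxide, had 199, 212 and 204 CPM under DMSO and 972, 1070 and 964 CPM under CCT068127. It rose 4.88-fold (log2 2.29 ± 0.09), and in TPM from 495 ± 10.8 to 1730 ± 119 (SD, n = 3). In both genes the spread within each group was small beside the gap between groups.

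The enzymes that recycle these proteins moved less. TXNRD1, the reductase that passes electrons from NADPH to thioredoxin, had 843, 652 and 645 CPM under DMSO and 859, 983 and 865 CPM under CCT068127. It was called higher by 0.34 ± 0.12 in counts, with 0.02 by library totals and the opposite sign, -0.15, on log2(TPM + 1). DMSO replicate 1 lay close to the treated libraries, and the call was lost when DMSO replicate 2 (0.25) or 3 (0.24) or any 1 of the treated replicates (0.34, 0.24 and 0.35) was left out, and against DMSO replicate 3 alone (0.45). SRXN1, which repairs overoxidised peroxiredoxins, had 65.1 to 81.5 CPM under DMSO and 101 to 123 CPM under CCT068127, a rise of 0.59 ± 0.12 that was uncalled by library totals (0.28) and on log2(TPM + 1) (0.10). Of its 50-base words, 84.7% occur in AL121758.1 as well, so reads of these genes may have been split.

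NADPH and pentose phosphate members went both ways. PGD, which makes NADPH in the oxidative branch of the pentose phosphate pathway, had 123, 128 and 125 CPM under DMSO and 306, 275 and 270 CPM under CCT068127, and rose 2.27-fold. TALDO1, a transaldolase of the non-oxidative branch, had 263, 230 and 235 CPM under DMSO and 600, 511 and 554 CPM under CCT068127, and rose 2.29-fold. TKT, the transketolase of the same branch, had 789, 667 and 595 CPM under DMSO and 601, 443 and 484 CPM under CCT068127. It fell by 0.42 on the log2 scale (SE 0.14), the groups overlapped in CPM by 1 treated library, and they did not overlap in TPM (565 to 748 against 300 to 393). The call was lost when CCT068127 replicate 2 (-0.36) or 3 (-0.40) was left out and against DMSO replicate 3 alone (-0.25). ME1, the malic enzyme that makes NADPH from malate, had 37.3, 31.6 and 32.3 CPM under DMSO and 29.3, 30.3 and 28.9 CPM under CCT068127. It was not called at -0.20 ± 0.12, and was called lower by library totals (-0.52) and on log2(TPM + 1) (-0.57).

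Of the reductases, NQO1 and AKR1C1 were called higher and AKR1C3 and CBR1 lower under TMM, and on log2(TPM + 1) the same 2 were called lower and 0 of these 4 higher. AKR1B10 and AKR1C2 each passed the filter through 1 group only and are left out of this count. Among all genes 31.9% were called higher and 32.8% lower under TMM, and 17.2% and 51.9% on log2(TPM + 1). NQO1, the quinone reductase often used as a readout of NRF2, had 551, 505 and 511 CPM under DMSO and 821, 739 and 795 CPM under CCT068127. It rose 1.50-fold in counts (log2 0.59 ± 0.09), while its TPM overlapped between groups (425 to 473 against 457 to 491) and the log2(TPM + 1) difference was 0.10 without a call. CBR1, a carbonyl reductase, had 59.7 to 60.7 CPM under DMSO and 50.9, 37.1 and 42.6 CPM under CCT068127, and fell by 0.44 on the log2 scale (SE 0.12). Against DMSO replicate 3 alone it was not called (-0.46).

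The aldo-keto reductases AKR1C1, AKR1C2 and AKR1C3, neighbours on chromosome 10 that reduce steroids and lipid aldehydes, moved in opposite directions. AKR1C1 had 117, 158 and 153 CPM under DMSO and 245, 210 and 221 CPM under CCT068127, a rise of 0.66 ± 0.13 in counts that was 0.14 and uncalled on log2(TPM + 1). AKR1C2 had 8.52, 12.1 and 10.3 CPM under DMSO and 1.43, 1.14 and 3.08 CPM under CCT068127, and fell 5.12-fold (log2 -2.36 ± 0.32). Its treated counts were 7, 2 and 13, only 1 treated library reached the 1.74 CPM of the filter, and it was tested only because it was high in the controls. Its log2 value was -2.94 without CCT068127 replicate 3. AKR1C3 had 37.8, 52.0 and 50.9 CPM under DMSO and 14.7, 16.6 and 11.8 CPM under CCT068127, and fell 3.33-fold (log2 -1.74 ± 0.18).

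These genes are near copies. Of the 50-base words of the longest coding transcript, AKR1C2 shared 52.2% with other genes (50.8% with AKR1C1), AKR1C1 shared 28.7% and AKR1C3 12.1%, so how reads were divided among them is uncertain. The sum of AKR1C1 and AKR1C2 was 153 ± 24.0 CPM under DMSO and 227 ± 17.7 CPM under CCT068127 (SD, n = 3), a ratio of 1.48. With AKR1C3 added it was 200 ± 31.9 and 242 ± 17.3 CPM (SD, n = 3), a ratio of 1.21. The 250 bases before the annotated starts of AKR1C1 and AKR1C2 were identical at 245 of 246 aligned positions (99.6%).

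AKR1B10, an aldo-keto reductase that acts on retinal and lipid aldehydes, went from near absence to a low level. Its counts were 103, 121 and 1 under DMSO and 40, 12 and 12 under CCT068127, or 0.249, 0.268 and 0.149 CPM against 8.15, 6.85 and 2.84 CPM. It passed the filter only through the treated libraries, so a difference was needed for it to be tested at all. The fitted difference was 22.9-fold (log2 4.52 ± 0.38), and its log2 value was 3.80 with the deep DMSO libraries thinned and 5.03 against DMSO replicate 3 alone. On log2(TPM + 1), where a low gene is understated, it was 2.32, and on log2(TPM + 0.1) it was 3.77. Part of its sequence (17.4% of 50-base words) is shared, most with AKR1B15.

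Conjugation, hydrolysis and export genes were called lower in 3 of the 3 tested under all 3 scalings, and the fourth, ABCC2, stood higher at low counts. Under TMM, by library totals and on log2(TPM + 1), 32.8%, 48.3% and 51.9% of all genes were called lower. ABCC3 (chr17:50634881-50692253), an exporter of glucuronide and other conjugates, had 183, 236 and 228 CPM under DMSO and 42.6, 40.0 and 37.2 CPM under CCT068127. It fell 5.39-fold (log2 -2.43 ± 0.13), and its TPM went from 86.7 ± 10.9 to 16.2 ± 0.674 (SD, n = 3). UGDH, which makes the UDP-glucuronate used for glucuronidation, had 103 to 116 CPM under DMSO and 72.7 to 80.0 CPM under CCT068127, and fell by 0.52 on the log2 scale (SE 0.10). EPHX1, the microsomal epoxide hydrolase, had 86.0, 101 and 103 CPM under DMSO and 86.4, 70.3 and 78.3 CPM under CCT068127, so that CCT068127 replicate 1 overlapped the controls. Its fall of 0.29 on the log2 scale (SE 0.12) was the smallest called change of the list. The call was lost when DMSO replicate 2 (-0.28) or 3 (-0.27) or CCT068127 replicate 2 (-0.25) or 3 (-0.30) was left out. Against DMSO replicate 3 alone EPHX1 stood at -0.42. With DESeq2, DESeq2 size factors, limma-voom and thinned deep DMSO libraries it stood at -0.25, -0.25, -0.25 and -0.24. In those 4 fits 7, 7, 7 and 8 members were called lower, against 9 in the main fit. The shares of all genes called in those 4 fits were not computed, so nothing is read from these numbers. ABCC2, an exporter of glutathione conjugates, did not pass the filter over all 6 libraries, with counts of 289, 234 and 4 under DMSO and 7, 11 and 15 under CCT068127. In CPM it stood at 0.519 to 0.700 under DMSO and at 1.43, 6.28 and 3.55 under CCT068127, without overlap. It passed the filter in some fits with fewer libraries. Its log2 values were 2.22 to 2.87 without 1 of the DMSO libraries or CCT068127 replicate 1, and 2.39 against DMSO replicate 3 alone. It was not tested without CCT068127 replicate 2 or 3. Where it was tested it passed only through the treated libraries, so a difference was needed for it to be tested at all. ABCC2 was not removed from the member counts given above for DMSO replicate 3 alone.

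OSGIN1, an NRF2 target that restrains growth, had 10.4, 5.39 and 4.93 CPM under DMSO and 23.2, 25.1 and 23.4 CPM under CCT068127. It rose 3.24-fold (log2 1.70 ± 0.28). DMSO replicate 1 stood apart from the other controls, and the log2 value was 2.13 without it.

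Per length, the members spanned from GPX2 at 0.10 TPM to FTH1 at 7690 TPM in the DMSO libraries. The sum over all members was 13900 ± 781 TPM under DMSO and 19500 ± 436 TPM under CCT068127 (SD, n = 3 each). The ferritin chains ranked 1st and 2nd in both groups. TKT went from 3rd to 9th, PRDX1 from 4th to 3rd, TXN from 8th to 4th, AKR1C3 from 12th to 23rd and ABCC3 from 13th to 26th. Neighbours such as PRDX1, TALDO1 and NQO1 under DMSO (495 ± 10.8, 456 ± 36.4 and 446 ± 24.6 TPM) overlapped in their library values from one to the next, and their order is not resolved there.

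**Figure D4:**
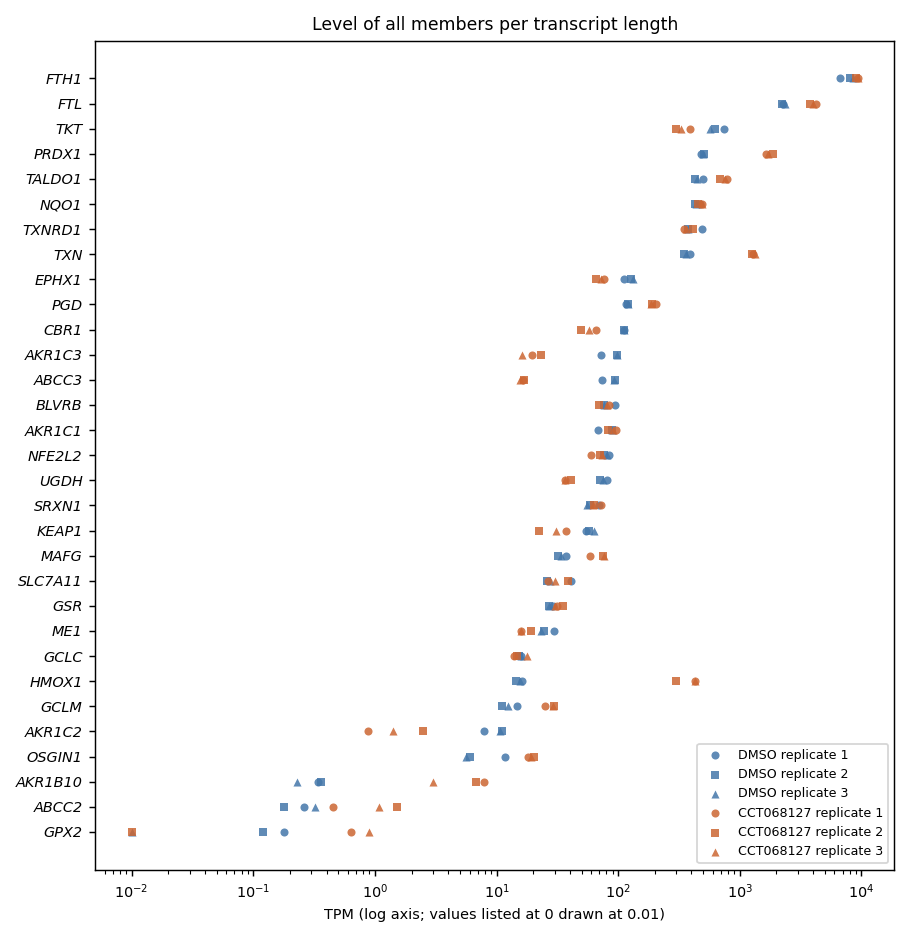
TPM of all 31 members in each of the 6 libraries on a log axis, ordered by DMSO mean; values listed at 0 are drawn at 0.01. The ferritin chains FTH1 and FTL stand at the top, HMOX1 moves from 15.4 to 387 TPM on average, and AKR1C3, ABCC3 and AKR1C2 move to the left.

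Around these genes, 132 further genes of the same pathways were listed by function and not by how they moved, of which 112 were tested. Of those, 38 were called higher, 41 lower and 33 neither, beside 31.9% and 32.8% of all genes, and the median was 0.01. Genes that passed the filter through 1 group only, such as CP and UGT1A6, high in the controls, were not removed from these counts. By library totals the split was 21 higher and 58 lower of 112, beside 22.1% and 48.3% of all genes. On log2(TPM + 1) it was 16 higher and 70 lower of 117, beside 17.2% and 51.9% of all genes.

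Among partners and turnover factors of NRF2, 4 of 16 tested genes were called higher and 6 lower, beside 31.9% and 32.8% of all genes. The split by library totals was 2 higher and 9 lower, beside 22.1% and 48.3% of all genes. MAFF, another small MAF, had 83.9, 65.9 and 64.8 CPM under DMSO and 245, 210 and 235 CPM under CCT068127, and rose 3.21-fold. MAFK rose by 0.48 ± 0.13, with 0.17 by library totals, 0.23 on log2(TPM + 1) and 0.46 against DMSO replicate 3 alone, all uncalled. RBX1, the RING subunit of the ligase that KEAP1 serves, rose 2.84-fold. BACH1, the repressor of HMOX1, had 78.4, 71.0 and 76.3 CPM under DMSO and 42.6, 70.3 and 75.0 CPM under CCT068127, and was not called at -0.29 ± 0.18. The treated libraries of BACH1 disagreed, with CCT068127 replicate 1 alone well below the controls, and it was called lower by library totals (-0.60) and on log2(TPM + 1) (-0.75). SQSTM1, the autophagy receptor that binds KEAP1, fell by 0.59 on the log2 scale and the related factor NFE2L1 fell by 0.43. The coactivators EP300 and CREBBP, which bind NRF2, fell by 0.87 and 0.63, and SYVN1, another ligase for NRF2, fell by 0.47, with -0.45 and no call against DMSO replicate 3 alone. NFE2L3, a relative of NRF2, lay at 0.03 under TMM and at -0.28 and -0.44 by library totals and on log2(TPM + 1), where it was called lower.

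In the other thioredoxin, peroxiredoxin and superoxide genes 6 of 17 were called higher and 6 lower, beside 31.9% and 32.8% of all genes. The split by library totals was 5 higher and 8 lower, beside 22.1% and 48.3% of all genes. Of the peroxiredoxins in this list, 3 were among the highest. PRDX3, the mitochondrial peroxiredoxin, had 99.4, 99.3 and 95.3 CPM under DMSO and 408, 444 and 449 CPM under CCT068127, a rise of 4.42-fold. PRDX2 rose 3.40-fold and PRDX4 rose 3.31-fold. PRDX6 rose by 0.44 on the log2 scale, with 0.13 by library totals, -0.05 on log2(TPM + 1) and 0.41 against DMSO replicate 3 alone, all uncalled. PRDX5 was not called at 0.02, and was called lower by library totals (-0.29) and on log2(TPM + 1) (-0.46). SOD1, the cytosolic superoxide dismutase, rose 2.59-fold. SOD2, its mitochondrial counterpart, had 492, 818 and 841 CPM under DMSO and 219, 249 and 246 CPM under CCT068127, and fell 3.01-fold. MSRB1, a methionine sulfoxide reductase, fell 2.28-fold, and TXNIP, which binds and inhibits thioredoxin, fell 1.64-fold.

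In the other glutathione genes 11 of 24 were called higher and 9 lower, beside 31.9% and 32.8% of all genes. The split by library totals was 4 higher and 11 lower, beside 22.1% and 48.3% of all genes. GSTP1, the main glutathione transferase of many epithelia, had 310, 284 and 289 CPM under DMSO and 869, 681 and 804 CPM under CCT068127, and rose 2.67-fold. GSTM1 rose 2.42-fold, and the microsomal transferases MGST1 and MGST3 rose 1.82-fold and 1.76-fold. The transferases did not move together. GSTM3 (0.44), GSTO1 (0.28) and MGST2 (0.35) were also called higher, and GSTM4 (-0.78), GSTZ1 (-0.67) and GSTK1 (-0.24) lower. Against DMSO replicate 3 alone these stood at 0.53, 0.26, 0.42, -0.71, -0.79 and -0.30. On log2(TPM + 1) GSTM3, GSTO1 and MGST2 were uncalled, and GSTM4, GSTZ1 and GSTK1 were called lower. CHAC1, which degrades glutathione and is a target of the integrated stress response, had 84.8, 62.2 and 63.0 CPM under DMSO and 7.54, 6.85 and 5.92 CPM under CCT068127. It fell 10.4-fold, and OPLAH, which opens 5-oxoproline, fell 1.86-fold. GPX4, the lipid peroxide reductase, lay at 0.00 ± 0.14 under TMM and was called lower on log2(TPM + 1) (-0.53).

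NADPH and pentose phosphate genes outside the members were called higher in 5 of 15 and lower in 4, beside 31.9% and 32.8% of all genes. The split by library totals was 2 higher and 7 lower, beside 22.1% and 48.3% of all genes. RPIA, the ribose 5-phosphate isomerase, rose 3.25-fold and IDH2, the mitochondrial NADP-linked isocitrate dehydrogenase, rose 2.11-fold. IDH1 rose by 0.38 and TIGAR by 0.40 under TMM, but they lay at -0.10 and -0.07, uncalled, on log2(TPM + 1). Both calls were lost when DMSO replicate 2 (0.33 for IDH1 and 0.35 for TIGAR) or 3 (0.35 and 0.33) or CCT068127 replicate 3 (0.31 and 0.31) was left out, and against DMSO replicate 3 alone (0.37 and 0.48). PGLS, the lactonase that acts just before PGD, had 62.7, 64.3 and 67.3 CPM under DMSO and 30.8, 12.0 and 25.1 CPM under CCT068127, and fell 2.65-fold. H6PD, which makes NADPH in the endoplasmic reticulum, fell 2.24-fold. PGLS and PGD, successive enzymes of the oxidative branch, were thus lower and higher.

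The other heme and iron genes were called higher in 8 of 21 and lower in 8, beside 31.9% and 32.8% of all genes. The split by library totals was 5 higher and 10 lower, beside 22.1% and 48.3% of all genes. TFRC, the transferrin receptor that brings iron into the cell, had 81.8, 103 and 102 CPM under DMSO and 374, 501 and 408 CPM under CCT068127, and rose 4.47-fold. HMOX2, the constitutive heme oxygenase, rose 2.04-fold and NCOA4, the receptor for ferritin turnover, rose 1.66-fold. UROD, an enzyme of heme synthesis, rose 1.67-fold in counts, with 0.24 and no call on log2(TPM + 1). FECH, which inserts iron into heme, fell 1.47-fold, and the iron chaperone PCBP1 fell 1.39-fold, a call lost against DMSO replicate 3 alone (-0.46). TFRC and both ferritin chains were thus higher in the same libraries.

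The other detoxification and export genes were called higher in 4 of 19 and lower in 8, beside 31.9% and 32.8% of all genes. The split by library totals was 3 higher and 13 lower, beside 22.1% and 48.3% of all genes. The fatty aldehyde dehydrogenase ALDH3A2 had 310, 357 and 338 CPM under DMSO and 38.5, 37.7 and 35.3 CPM under CCT068127, and fell 9.03-fold. Its relative ALDH3A1 had 361, 488 and 382 CPM under DMSO and 32.4, 16.6 and 20.4 CPM under CCT068127, and fell 16.9-fold. ABCC4, an exporter related to ABCC3, fell 3.29-fold and CBR4, a carbonyl reductase, fell 1.73-fold. AKR7A2, an aldehyde reductase, rose 2.42-fold. ALDH7A1 rose 1.73-fold in counts, with 0.32 and no call on log2(TPM + 1).

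**Figure D5:**
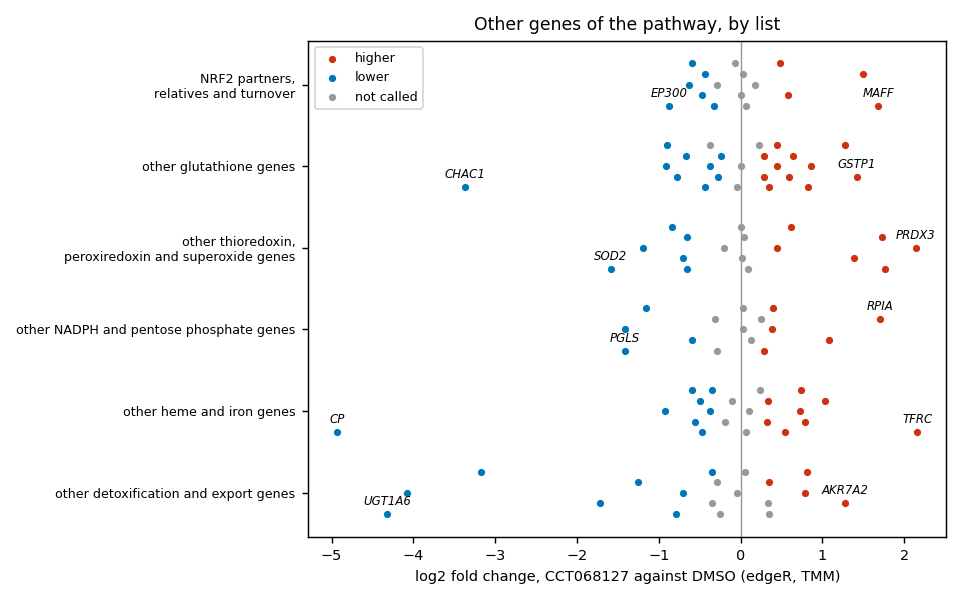
Log2 fold change (edgeR, TMM) of the 112 tested genes in 6 further pathway lists; each mark is a gene, red where called higher, blue where called lower and grey where not called, with the highest and lowest gene of each list labelled. Both directions occur in every list. CP, an iron oxidase of blood plasma (-4.93), and UGT1A6, a glucuronosyltransferase (-4.32), are labelled because they are lowest, a choice made after their values were seen. Their treated counts were 4, 3 and 4 for CP and 0, 0 and 3 for UGT1A6. Both were tested only because they were high in the controls. CP had an SE of 1.08, with 9.58, 41.3 and 46.3 CPM in DMSO replicates 1 to 3.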

How the data were processed

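Poly(A) RNA of 3 DMSO and 3 CCT068127 cultures of T-24 cells was analysed from the deposited tables. The authors deposited a table of estimated counts, in whole numbers per gene symbol, and a table of TPM values for the same genes. The submitters' processing notes name RSEM, Bowtie and the build hg38, with neither versions nor an annotation. RSEM shares out reads that match several genes by a model. Groups were taken from sample titles, and each column matched 1 title.

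Counts were fitted with edgeR 4.0.16 in R 4.3.3 (filterByExpr with a minimum count of 10, TMM scaling, robust quasi-likelihood, Benjamini-Hochberg adjustment over 13597 genes, calls at 0.05). The SE was approximated from the F statistic. CPM used TMM-scaled totals, with SD over 3 libraries. The fit was also run on simulated counts in which few genes changed, unlike these data, so nothing is read from that run. Alternatives were DESeq2 1.42.0 and its size factors, upper-quartile scaling, library totals, no filter, a replicate block, limma 3.58.1 (voom, and trend on log2(TPM + 1) or + 0.1, with or without 1 TPM in 3 libraries), each library left out, deep DMSO libraries thinned, and DMSO replicate 3 as the sole control.

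The members, the further lists and the alternatives were chosen with earlier results of these data known. All 31 members are named. From each further list came up to 4 called genes in its more common direction and up to 2 in the other, by smallest adjusted p at a mean of at least 5 CPM, plus NFE2L1, NFE2L3, MAFF, MAFK, BACH1, SQSTM1, IDH1, GPX4, TFRC and TXNIP. Other listed genes enter the counts and sums, and a few of them are named beside their relatives after their values were seen. Gene positions and promoters are from RefSeq (GRCh38.p14, matching hg38), and transcripts from GENCODE 29. Promoters were matched for 24 of 31 members. Shared 50-base words and the promoter alignment (Biopython 1.88) were computed from these.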

Additional observations from a re-analysis of the deposited data

How the results depend on the processing

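Single-gene values were compared over 29 members, the 42 further genes named by the rule above and 18 alternatives. They kept their side of the threshold, and a called value its direction, in 445 cases for the members and 712 for the further genes. They lost the call in 57 and 26, gained it in 5 and 8, and changed sign with a call in at least 1 of the fits compared in 15 and 10. A value uncalled in both fits was counted as kept whatever its sign, as for NFE2L3 (0.03, and -0.21 without a low-count filter). On log2(TPM + 1), log2(TPM + 0.1) and log2(TPM + 1) without a filter, members called higher numbered 11, 11 and 10, further genes called higher 16, 16 and 16, further genes called lower 70, 70 and 67, and the members' median was 0.10, 0.10 and 0.10. In those 3 fits the sign changed for NFE2L2 (-0.24), BLVRB (-0.07), SLC7A11 (0.02), GCLC (-0.03), TXNRD1 (-0.15), IDH1 (-0.10), NFE2L3 (-0.44, -0.45 and -0.44) and TIGAR (-0.07, -0.08 and -0.07). By library totals the median was 0.28, further genes called higher numbered 21 and NFE2L3 stood at -0.28. Without a low-count filter the median was 0.35 and further genes called higher numbered 23. With DMSO replicate 3 as the sole control, members called lower numbered 5, and further genes called higher and lower 24 and 26. For these changes the cause was not tested, except that a single control has fewer samples. Leaving out 1 library gave 17 to 20 members called higher, 6 to 9 lower and a median of 0.52 to 0.60. Same-numbered libraries of the groups did not deviate together (correlations of 0.03, 0.00 and 0.03), so the replicate numbers were not taken as pairs. With the replicate block, 19 members were called higher and 8 lower, EPHX1 losing its call, and further genes 34 and 34. The shares of all genes called were computed only for TMM, library totals, log2(TPM + 1) and DMSO replicate 3 alone. Nothing is read from the counts of the other fits. HMOX1, AKR1B10 and AKR1C2, and ABCC2 where it was tested, were not removed from the members' counts in this paragraph. What a count of 0 allows was 0.00665 and 0.00726 CPM in the 2 deep libraries and 0.448 to 1.71 CPM in the other 4.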
